A study of Mus musculus with 7 samples.

Results

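The Hedgehog pathway was followed through 9 of its genes in whole mouse embryos with and without SLMAP3. The genes were chosen by name from the table of expression values, which lists 25461 genes: the ligand Shh, the receptor Ptch1, the ligand-binding inhibitor Hhip, the co-receptors Boc and Cdon, the transducer Smo, and the transcription factors Gli1, Gli2 and Gli3. All 9 were found, each once, and all 9 passed the filter on low values, a mean of at least 1 FPKM (fragments per kilobase of a transcript, corrected for how deeply a library was sequenced). The embryos were E11.5 embryos of the B6C3F1 strain, 3 SLMAP3 KO and 4 WT. KO embryos were homozygous for a Slmap allele whose floxed exon 3 had been deleted in an earlier cross to CMV-cre mice and which was then bred on without cre, so that the SLMAP3 isoform is lost and the shorter SLMAP isoforms are spared. Embryos of both genotypes were whole bodies without the tail, which had been taken for genotyping, and 1 library was made from each embryo with no pooling. In whole embryos, fewer cells of a type and less RNA per cell cannot be told apart.

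In the Hedgehog pathway, the secreted ligand binds the receptor PTCH1 and thereby frees SMO, which acts at the primary cilium to shift the balance of the GLI factors from repression to activation of their targets. CDON, BOC and GAS1 hold the ligand at the cell surface together with PTCH1, while HHIP and PTCH1 itself take it up and limit its range. Ptch1, Gli1 and Hhip are themselves targets and are used as readouts of the pathway, whereas Cdon, Boc and Gas1 are known to be repressed by it. In the embryo of this age, Shh is made by the notochord and floor plate, by the posterior limb bud and by the gut endoderm, and it patterns the ventral neural tube, the limb and the sclerotome.

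The 9 genes lie at separate places in GRCm38, the build that the submitters' processing notes name, and positions were taken from the GENCODE release M21 annotation of that build. Shh lies on chromosome 5 (28456815 to 28467256), Ptch1 on chromosome 13 (63508328 to 63573598) and Hhip on chromosome 8 (79965851 to 80058006). Boc lies on chromosome 16 (44485049 to 44558897), Cdon on chromosome 9 (35421128 to 35507652) and Smo on chromosome 6 (29735503 to 29761365). Gli1 lies on chromosome 10 (127329882 to 127341974), Gli2 on chromosome 1 (118834132 to 119053619) and Gli3 on chromosome 13 (15463235 to 15730026).

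Since Cdon and Boc are paralogs, as are the Gli genes, their sequences decide whether a read can be given to one gene alone. Among the 9 genes, the longest run of identical bases between the coding sequences of any pair was 31 bases, shared by Boc and Cdon, and the next was 25 bases, shared by Gli2 and Gli3. These stretches are shown because they are the places where values of the paralogs could be confused most easily. Each is printed with 30 bases on either side, the identical run is in capitals, and bases are counted from 1 at the start codon of the GENCODE transcript with the longest coding sequence. The run covers bases 2248 to 2278 in Boc, 2593 to 2623 in Cdon, 1339 to 1363 in Gli2 and 1528 to 1552 in Gli3.
Boc: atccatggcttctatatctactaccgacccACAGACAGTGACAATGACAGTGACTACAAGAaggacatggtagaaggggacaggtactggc
Cdon: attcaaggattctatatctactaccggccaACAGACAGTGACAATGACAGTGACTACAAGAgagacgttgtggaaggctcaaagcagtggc
Gli2: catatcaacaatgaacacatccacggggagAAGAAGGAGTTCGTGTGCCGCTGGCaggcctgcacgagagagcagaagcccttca
Gli3: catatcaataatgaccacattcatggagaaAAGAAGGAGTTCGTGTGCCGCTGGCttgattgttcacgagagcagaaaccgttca
No stretch of 50 bases in the transcripts of Boc, Cdon or Gli2 occurred in a transcript of another gene on either strand. For Ptch1, Hhip, Smo, Gli3 and Gli1 the shared part ranged from 0.262% for Ptch1 to 4.51% for Gli1. For Shh it was 23.6%, the largest part of it with the antisense transcript 9530036O11Rik. The TruSeq RNA v2 kit does not mark the strand, so reads of Shh and of this transcript cannot be told apart where they overlap, and 9530036O11Rik is listed at a mean of 0.021 FPKM.

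The promoter of Ptch1, the textbook target of GLI, is shown as the 250 bases before its RefSeq start (GRCm38.p6, chr13:63565736-63565985, minus strand), with each CG pair in capitals. This start lies inside the GENCODE span of the gene given above.
Ptch1 promoter: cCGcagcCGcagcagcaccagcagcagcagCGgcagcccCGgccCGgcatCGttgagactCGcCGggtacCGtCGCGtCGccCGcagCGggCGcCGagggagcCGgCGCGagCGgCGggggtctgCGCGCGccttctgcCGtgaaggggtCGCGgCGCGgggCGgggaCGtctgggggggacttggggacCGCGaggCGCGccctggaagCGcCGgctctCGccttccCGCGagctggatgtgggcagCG
It holds 41 CG pairs, where the median over all 32851 RefSeq promoters of the same length was 6, and 98.9% of them held fewer. The GLI consensus GACCACCCA, searched on both strands, was in 0.225% of these promoters and in 0 of the 6 that matched a Hedgehog gene (Ptch1, Hhip, Cdon, Smo, Gli2 and Gli3). This says only that these letters are not in these windows, and those of Ptch1, Cdon and Gli3 lie inside the GENCODE spans of their genes.

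Between 54400000 and 81800000 counts on genes were estimated for an embryo. A Hedgehog gene had an estimated count between 439 in its shallowest embryo (Hhip) and 15100 in its deepest (Smo), so that the counting error of the least covered value was 4.77% for Hhip and 3.79% for Shh. Slmap, the targeted gene, was at 16.0 to 19.6 FPKM in KO and 22.8 to 31.2 FPKM in WT embryos, with no overlap. The SLMAP isoforms are not separated by a value per gene. Of 8 liver markers, the summed level was 466 to 814 FPKM in 4 embryos and 6.29 to 15.7 FPKM in KOAC10-5 (KO), KOAC10-7 (WT) and KOAC10-2 (WT), whose Afp was at 5.18, 1.30 and 2.49 FPKM. These libraries go against the label of a whole embryo in this respect. Fold changes of the 9 Hedgehog genes are given with and without them. Of the 16095 genes tested, 6 passed an adjusted p of 0.05 (limma on log2(FPKM + 1) with Benjamini-Hochberg adjustment), which is 0.0373% of the genes, with 3 higher and 3 lower in KO embryos (0.0186% in each direction). Before adjustment, 1846 genes (11.5%) had a p under 0.05.

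Among the 9 Hedgehog genes, 0 passed the adjusted threshold in limma (0.0373% of all genes did, 0.0186% higher and 0.0186% lower in KO embryos), also without the 3 embryos nearly lacking liver transcripts. An unadjusted p under 0.05 was reached by 2, where all genes give 11.5%. These were Shh, with the higher mean in KO embryos (5.27% of all genes), and Cdon, with the lower (6.19%). Cdon was also the 1 gene of the 9 whose KO and WT embryos did not overlap, where 11.6% of all genes tested did not overlap and 5.98% lay lower in this way. The fold change was positive for 7 genes and negative for Boc and Cdon, with a median of 0.13 on the log2 scale against 0.01 over all genes tested. That median was 0.053 without KOAC10-8 and 0.23 without the 3 embryos nearly lacking liver transcripts. The range ran from -0.25 for Cdon to 0.52 for Shh.

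**Figure D1:**
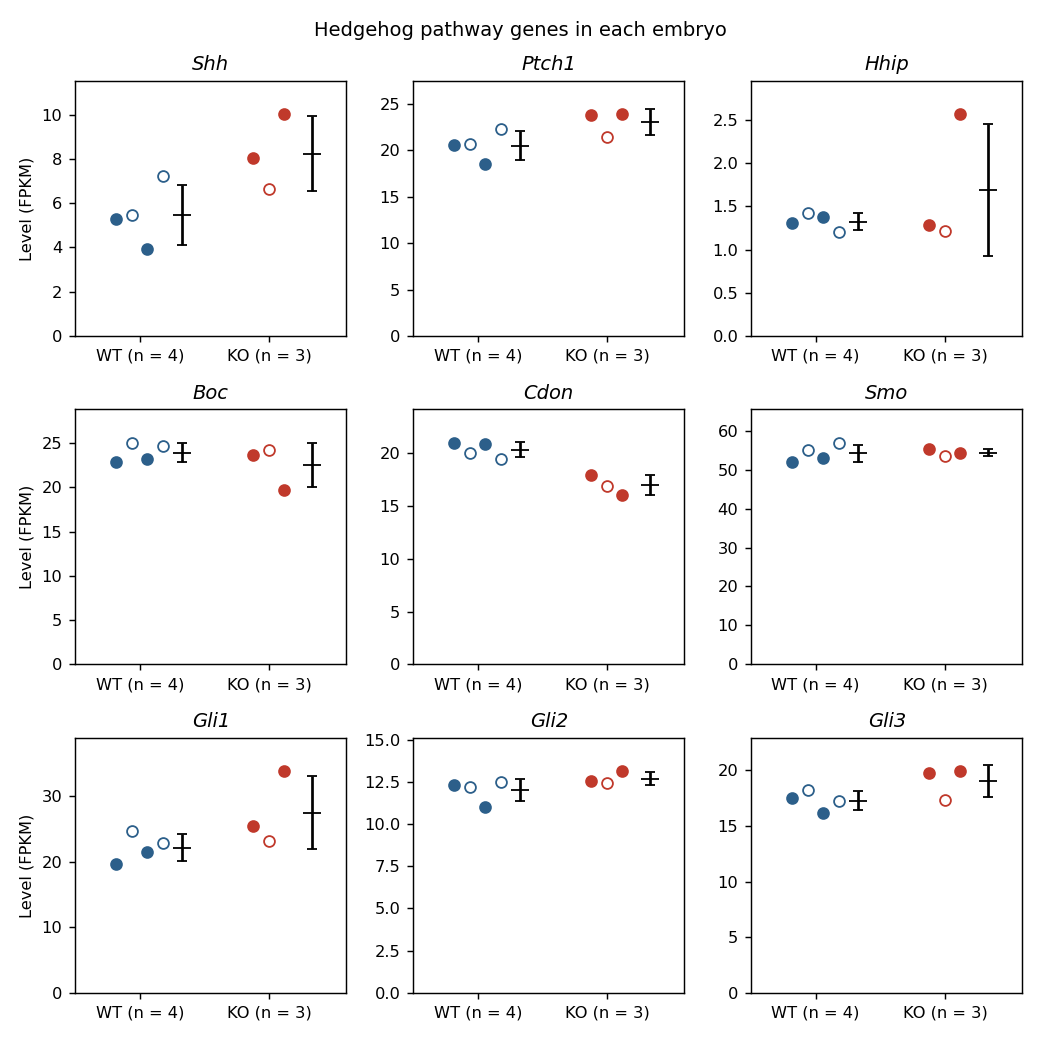
Level of each Hedgehog gene in FPKM (vertical axes from 0) in 4 WT (blue) and 3 KO (red) embryos, 1 circle per embryo, with open circles for the 3 embryos nearly lacking liver transcripts and bars for the mean ± SD of each genotype. The genotypes are apart for Cdon, at 16.0 to 17.9 FPKM in KO and 19.4 to 21.0 FPKM in WT embryos, and 1 KO embryo is high for Hhip, at 2.57 FPKM.

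Smo was highest, at a mean of 54.3 FPKM over the 7 embryos, and lay above every other gene of the group in every embryo. It was followed by Gli1 (24.4 FPKM), Boc (23.3 FPKM), Ptch1 (21.6 FPKM), Cdon (18.9 FPKM) and Gli3 (18.0 FPKM), among which each neighbour in this order overlapped the next in range. Gli2 followed at 12.3 FPKM, Shh at 6.66 FPKM and Hhip at 1.48 FPKM, each below its upper neighbour in all 7 embryos. Over the embryos, Smo varied least, with a coefficient of variation of 3.09%, then Gli2 with 5.17%, Boc with 7.61%, Gli3 with 7.69%, Ptch1 with 8.87% and Cdon with 10.3%. Gli1 (18.6%), Shh (30.3%) and Hhip (32.7%) varied most.

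Shh, the ligand, was at 8.05, 6.65 and 10.02 FPKM for the KO embryos KOAC8-6, KOAC10-5 and KOAC10-8, against 5.27, 5.47, 3.92 and 7.21 FPKM for the WT embryos KOAC8-1, KOAC10-7, KOAC9-1 and KOAC10-2. The highest value was in a KO and the lowest in a WT embryo, but the WT embryo KOAC10-2 lay above the KO embryo KOAC10-5, so that the genotypes overlapped. The KO mean of 8.24 ± 1.69 FPKM (SD, n = 3) was 151% of the WT mean of 5.47 ± 1.35 FPKM (SD, n = 4), giving a log2 fold change of 0.52 (SE, the standard error, 0.19, 95% interval 0.07 to 0.97, limma adjusted p = 0.391). An exact permutation test over the 35 splits of the embryos, two-sided, gave p = 0.0857, where the smallest p it allows is 0.0286. Without the 3 embryos nearly lacking liver transcripts, which leaves 2 against 2, the log2 fold change was 0.85 (limma adjusted p = 0.380). The unadjusted p of Shh, 0.0282 in limma, was over 0.05 without KOAC8-6 (0.0620), KOAC10-8 (0.104), KOAC8-1 (0.0553) or KOAC9-1 (0.0544), and with the label series as a block (0.0727). Within the series of embryo labels, the log2 difference of Shh between KO and WT was 0.53 for the pair of KOAC8 embryos and 0.33 for the 4 KOAC10 embryos.

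The related ligands Ihh, of cartilage and gut, and Dhh, of Schwann cells and testis, averaged 0.461 and 0.337 FPKM, below the filter, and were not tested. Of the other genes of ligand release and reception, 12 were tested, and 0 passed the adjusted threshold in limma. An unadjusted p under 0.05 was reached by 2 with the higher and 2 with the lower mean in KO embryos, where all genes give 5.27% and 6.19%. Scube1, a secreted protein of the SCUBE family, to which a helper of ligand release belongs, was at 31.6 to 41.7 FPKM in KO and 25.5 to 29.98 FPKM in WT embryos, with no overlap, giving a log2 fold change of 0.32 (SE 0.11, adjusted p = 0.373), which was 0.19 without KOAC10-8. Those with the lower mean were Mgrn1, a ubiquitin ligase that lowers SMO at the cell surface (log2 fold change -0.13), and Gas1 (-0.23). Over 15 alternatives of the model, the unadjusted p in limma was under 0.05 in 12 for Scube1, 8 for Mgrn1 and 14 for Gas1. It reached 0.0564 for Scube1 and 0.0793 for Mgrn1. Disp1, which releases the ligand from the cell, and Hhat, which attaches its lipid, had log2 fold changes of -0.07 and 0.01.

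Ptch1, the receptor, was at 23.8, 21.4 and 23.9 FPKM among KO embryos, against 20.6, 20.6, 18.5 and 22.3 FPKM among WT embryos, in the same order as above. As for Shh, KOAC10-5 (KO) and KOAC10-2 (WT) were those that crossed. The mean was 23.0 ± 1.37 FPKM (SD, n = 3) for KO embryos and 20.5 ± 1.55 FPKM (SD, n = 4) for WT embryos, giving a log2 fold change of 0.16 (SE 0.07, limma adjusted p = 0.462). The interval of the difference ran from -0.01 to 0.34, and the exact permutation test, two-sided, gave p = 0.0857. Without the embryos nearly lacking liver transcripts the log2 fold change was 0.28.

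Hhip, which binds the ligand and withholds it from the receptor, was at 1.28, 1.22 and 2.57 FPKM among KO embryos, against 1.31, 1.42, 1.37 and 1.20 FPKM among WT embryos. The value of KOAC10-8 stood apart from all others, and the remaining 2 KO embryos lay within the WT range. The log2 fold change was 0.18 (SE 0.17, limma adjusted p = 0.711), and it was -0.05 without KOAC10-8 and 0.29 without the embryos nearly lacking liver transcripts.

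The co-receptors Boc and Cdon, related cell surface proteins of the immunoglobulin superfamily, both had the lower mean in KO embryos, but of the pair the genotypes were apart for Cdon alone. Cdon was at 17.9, 17.0 and 16.0 FPKM among KO embryos, against 21.0, 20.1, 20.9 and 19.4 FPKM among WT embryos. The KO mean of 17.0 ± 0.943 FPKM (SD, n = 3) was 83.4% of the WT mean of 20.3 ± 0.735 FPKM (SD, n = 4), giving a log2 fold change of -0.25 (SE 0.06, 95% interval -0.38 to -0.11). The adjusted p was 0.285 in limma, with an unadjusted p = 0.00312 that 1.05% of all genes tested undercut, and the exact permutation test, two-sided, gave p = 0.0286, the smallest possible. The difference lay between -0.29 and -0.21 over the 15 alternatives of the model, with an unadjusted p under 0.05 in each and an adjusted p between 0.199 and 0.552. It was -0.22 within the KOAC8 series and -0.25 within the KOAC10 series, and -0.29 without the embryos nearly lacking liver transcripts.

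Boc was at 23.7, 24.2 and 19.7 FPKM among KO embryos, against 22.9, 25.0, 23.2 and 24.6 FPKM among WT embryos. Only KOAC10-8 lay below the WT range, and the log2 fold change of -0.09 (SE 0.08, limma adjusted p = 0.682) was 0.00 without it and stayed at -0.09 without the embryos nearly lacking liver transcripts. Gas1, the third co-receptor, was at 59.1, 59.1 and 55.0 FPKM among KO embryos, against 63.4, 71.3, 65.7 and 71.4 FPKM among WT embryos, so that the genotypes did not overlap, as for Cdon. Its log2 fold change was -0.23 (SE 0.06, limma adjusted p = 0.295; exact permutation test, two-sided, p = 0.0286). Without the embryos nearly lacking liver transcripts it was -0.18, with a limma unadjusted p = 0.0837.

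Cdon is also known for a role in muscle differentiation, and the skeletal muscle markers were lower in the same embryos. Of 6 markers tested, 5 did not overlap between the genotypes and had an unadjusted p under 0.05, all lower in KO embryos, where 5.98% of all genes tested lay lower without overlap and 6.19% were lower at this p. The summed level of the 7 on the list was 56.8 to 96.6 FPKM in KO and 139 to 239 FPKM in WT embryos. Their defining factors were present in every embryo, Myog at 8.24 FPKM or more and Myod1 at 3.54 FPKM or more. For mesenchyme, which expresses Cdon and Gas1 widely, the KO sum of 6 markers ran from 386 to 451 FPKM. The WT sum ran from 446 to 480 FPKM, so that the ranges overlapped. Col1a2 was the largest part of this sum, with a KO mean of 162 FPKM and a WT mean of 207 FPKM. The markers were mixed in direction, with 4 negative and 2 positive log2 fold changes, from -0.36 for Col1a2 to 0.22 for Prrx2. Without overlap, 2 of them lay lower and 1, Prrx2, lay higher in KO embryos, where all genes tested give 5.98% and 5.61%. The part of either tissue in the lower Cdon and Gas1 was not tested.

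**Figure D2:**
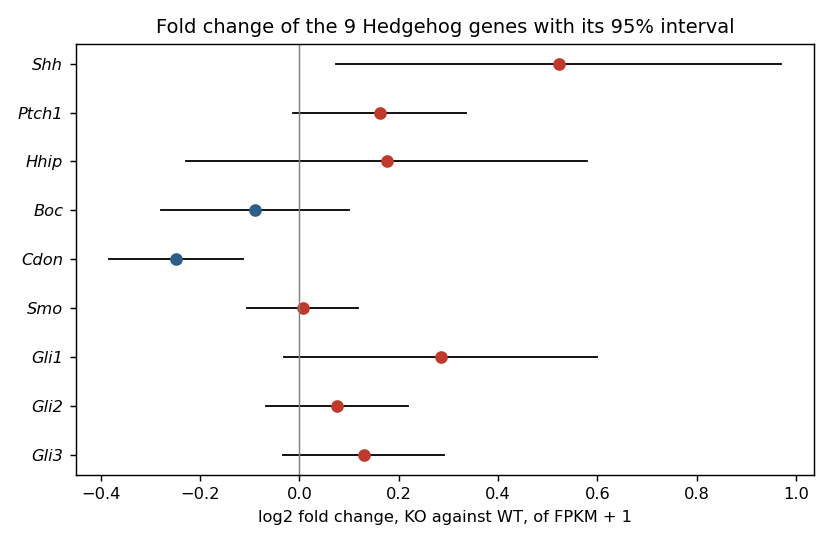
Log2 fold change between KO and WT embryos, positive where KO is higher (horizontal axis, of FPKM + 1) for the 9 Hedgehog genes, with dots for the estimate from limma over 3 KO and 4 WT embryos (red above 0, blue below) and lines for its 95% interval. The intervals of Shh (0.07 to 0.97) and Cdon (-0.38 to -0.11) leave out 0 before adjustment for the 16095 genes tested, and the other 7 hold 0.

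Smo, the transducer, was at 55.3, 53.5 and 54.3 FPKM among KO embryos, against 51.9, 55.0, 52.9 and 56.9 FPKM among WT embryos. All KO values lay within the WT range, and the interval of the log2 fold change ran from -0.11 to 0.12, so that larger differences lay outside it. The estimate was 0.01, or 0.07 without the embryos nearly lacking liver transcripts. Of the 21 genes on the list of regulators of SMO and GLI, all were tested, 0 passed the adjusted threshold in limma, and 1 had an unadjusted p under 0.05 (Zic2, log2 fold change 0.23, SE 0.08, adjusted p = 0.354), where all genes give 11.5%. The unadjusted p of Zic2 was 0.0590 without KOAC10-8 and 0.0575 without KOAC10-5 in limma. Next by p were Arrb2, a beta-arrestin (0.22, or 0.14 without KOAC10-7 and 0.09 without the 3 embryos nearly lacking liver transcripts), and Evc2, of the ciliary EVC complex that binds SMO (0.11). The fold changes of the 21 ran from -0.11 to 0.23 with a median of 0.03, and included those of Sufu, the inhibitor that holds the GLI factors in the cytoplasm (log2 fold change 0.09), and Kif7, the kinesin of the ciliary tip that organizes them (0.05).

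Gli1, the activator that is itself a target, was at 25.5, 23.2 and 33.8 FPKM among KO embryos, against 19.7, 24.7, 21.5 and 22.8 FPKM among WT embryos. The embryo KOAC10-8 was highest by far, KOAC8-6 lay just above the WT range, and KOAC10-5 lay within it. The mean was 27.5 ± 5.60 FPKM (SD, n = 3) for KO embryos and 22.2 ± 2.10 FPKM (SD, n = 4) for WT embryos, giving a log2 fold change of 0.28 (SE 0.13, limma adjusted p = 0.472; exact permutation test, two-sided, p = 0.114). It was 0.13 without KOAC10-8 and 0.49 without the embryos nearly lacking liver transcripts.

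Gli2, the main activator in the neural tube, was at 12.5, 12.4 and 13.1 FPKM among KO embryos, against 12.3, 12.2, 11.02 and 12.5 FPKM among WT embryos, overlapping in a narrow range. The log2 fold change was 0.08, with an interval from -0.07 to 0.22. It was 0.04 without KOAC9-1 and 0.13 without the embryos nearly lacking liver transcripts. Gli3, the main repressor, was at 19.8, 17.4 and 19.9 FPKM among KO embryos, against 17.5, 18.3, 16.2 and 17.2 FPKM among WT embryos. KOAC8-6 and KOAC10-8 lay above every WT embryo and KOAC10-5 did not, and the log2 fold change was 0.13 (SE 0.07, limma adjusted p = 0.514), or 0.23 without the embryos nearly lacking liver transcripts. The FPKM values are of RNA and do not separate the full-length GLI proteins from their cleaved repressor forms.

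Several of the 9 genes went up and down together over the 7 embryos. Ptch1 followed Shh most closely (Pearson r = 0.97 of log2 values, and 0.98 without KOAC10-8), and Gli2 (0.91), Gli3 (0.82) and Gli1 (0.79) followed it as well, whereas Cdon went the other way (-0.85, and -0.73 without KOAC10-8). These values describe 7 points that share the genotype difference, and 36 pairs of genes were looked at. Hhip and Gli1 had r = 0.86 over 7 embryos and 0.03 without KOAC10-8, and Hhip and Boc had -0.90 and -0.05, so that both rested on this embryo. KOAC10-8 was the highest embryo for 6 of the 9 genes and the lowest for Boc and Cdon, and the WT embryo KOAC9-1 was the lowest for 4.

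**Figure D3:**
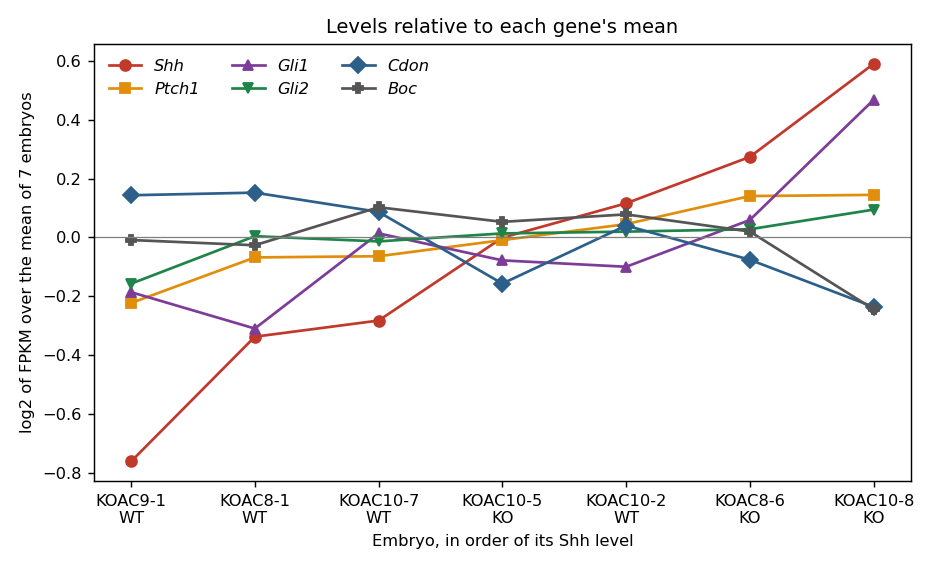
Log2 of the FPKM value over the gene's mean of 7 embryos (vertical axis) for Shh, Ptch1, Gli1, Gli2, Cdon and Boc in each embryo (horizontal axis, ordered by the Shh level, genotype below the name). Ptch1 is higher at each step in the order of Shh, over a smaller range, Cdon is highest in the WT embryos KOAC8-1 and KOAC9-1 and lowest in the KO embryo KOAC10-8, and the KO embryo KOAC10-5 lies between WT embryos for Shh.

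Of 26 genes known as Hedgehog targets or as marks of Shh-dependent tissues, 24 were tested and 0 passed the adjusted threshold in limma. The median log2 fold change was 0.16, against 0.01 over all genes tested. An unadjusted p under 0.05 was reached by 7 with the higher and 1 with the lower mean in KO embryos (5.27% and 6.19% among all genes tested). The genotypes did not overlap for 5 that lay higher and 1 that lay lower (5.61% and 5.98% among all genes tested). The 7 were Nkx6-2, Olig2, Nkx6-1, Nkx2-2 and Foxa2, which mark the ventral neural tube and floor plate, and Foxc2 of the sclerotome and Mycn, which promotes growth of neural progenitors.

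Nkx6-2 was at 5.54, 6.95 and 7.71 FPKM among KO embryos, against 3.24, 3.44, 3.49 and 4.76 FPKM among WT embryos, with no overlap. The difference without the 3 embryos nearly lacking liver transcripts was 0.79 on the log2 scale, and with them it gave a log2 fold change of 0.71 (SE 0.14, limma adjusted p = 0.274). Olig2, the factor of motor neuron progenitors, was at 4.44 to 5.46 FPKM in KO and 3.41 to 4.26 FPKM in WT embryos, giving a log2 fold change of 0.34 (SE 0.10, adjusted p = 0.317). Foxa2, the factor of floor plate and notochord, was at 2.65 to 3.74 FPKM in KO and 2.01 to 2.58 FPKM in WT embryos. Nkx2-2, of the progenitors next to the floor plate, overlapped between the genotypes, at 5.08 to 5.61 FPKM in KO and 2.73 to 5.10 FPKM in WT embryos.

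In the opposite direction, Pax1, a sclerotome factor that depends on Shh, was at 7.60 to 9.90 FPKM in KO and 9.81 to 12.3 FPKM in WT embryos, giving a log2 fold change of -0.33 (SE 0.10, limma adjusted p = 0.348). Without the embryos nearly lacking liver transcripts it was -0.18, with a limma unadjusted p = 0.216. Its relative Pax9 had a log2 fold change of 0.02. The distal limb bud genes Hoxd13 and Hoxd12 were lowest in the WT embryo KOAC10-2. Hoxd13 was at 3.76 FPKM there, against 7.997 to 11.2 FPKM in the other WT embryos, and Hoxd12 at 1.69 FPKM, against 3.27 to 5.01 FPKM.

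The ligand's own sources are marked by other genes. Of 7 genes of the floor plate and notochord found in the table, 0 passed the adjusted threshold in limma, 1 (Foxa2) had an unadjusted p under 0.05, where all genes give 11.5%, and the median log2 fold change was -0.02. The log2 fold change of Foxa2 was 0.30, or 0.19 without KOAC10-8 (limma unadjusted p = 0.107) and 0.45 without the embryos nearly lacking liver transcripts. Its unadjusted p stayed under 0.05 in limma only when the embryo left out was KOAC10-5 or KOAC10-2. Ntn1, a guidance cue of the floor plate, was at 22.6 ± 1.05 FPKM (SD, n = 3) for KO embryos and 23.1 ± 1.91 FPKM (SD, n = 4) for WT embryos, and Spon1, of the floor plate as well, at 18.1 ± 0.391 and 18.5 ± 1.08 FPKM. Sulf1, a heparan sulfate sulfatase, had a log2 fold change of -0.05 and Foxa1 one of 0.24. With each embryo left out in turn, Sulf1 ran from -0.13 to -5.2e-05, the latter without KOAC10-8. Foxa1 was 0.15 without KOAC10-8 and 0.41 without the embryos nearly lacking liver transcripts.

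Neural progenitors, in which the ventral genes are expressed, have markers of their own. Of 7 such markers, 6 had an unadjusted p under 0.05 with the higher mean in KO embryos (5.27% of all genes tested), 3 lay higher without overlap (5.61% of all genes tested), and the median log2 fold change was 0.44. The list summed to 661 to 740 FPKM in KO and 598 to 683 FPKM in WT embryos, with Sox2 at 39.9 FPKM or more in every embryo. Neuron markers had a median of -0.09. The part of neural progenitor content in the values of Shh and of its ventral targets was not tested.

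**Figure D4:**
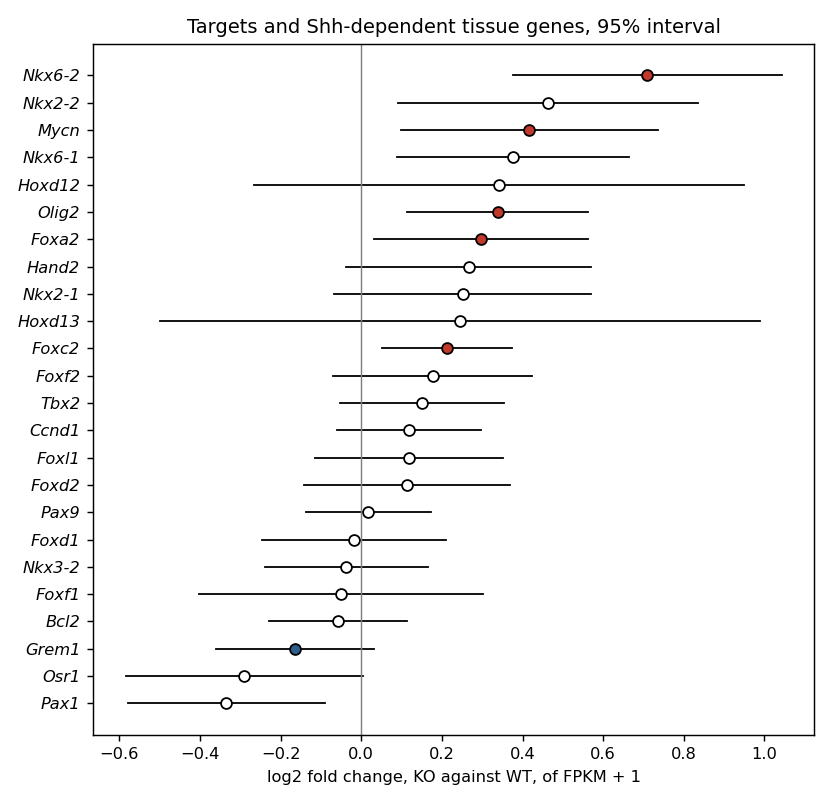
Log2 fold change between KO and WT embryos, positive where KO is higher (horizontal axis, of FPKM + 1) for 24 tested target and tissue genes, with dots for the estimate from limma over 3 KO and 4 WT embryos and lines for its 95% interval. Dots are red where all KO embryos were above the WT range (5 genes), blue where all were below it (Grem1) and white where the genotypes overlapped, and Nkx6-2 is farthest from 0 at 0.71.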

How the data were processed

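E11.5 embryos, 3 SLMAP3 KO and 4 WT, were grouped by the genotype in their labels. The FPKM values are those of the authors, deposited per gene for each embryo from TruSeq RNA v2 libraries. The submitters' processing notes name Salmon, DESeq2, MultiQC and GRCm38 without roles, and the annotation is not given in the sources used here. The authors also deposited a mean signal per gene (counts over size factors), used here for depth only, and the fold changes, standard errors and p-values of their own comparison, which were not used.

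Values were transformed to log2(FPKM + 1), which understates the change of low genes. The 16095 genes averaging 1 FPKM or more were fitted in limma 3.58.1 (R 4.3.3; lmFit, then eBayes using the mean-variance trend; no covariates), with Benjamini-Hochberg adjustment over all of them and a threshold of 0.05. Exact permutation over 35 splits was used for single values. Counts per embryo were estimated from the steps between low FPKM values and the mean signal. The model was tested on simulated data.

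The members and lists were chosen with earlier results of these data known. Named are the 9 members, Slmap, the 3 genes of smallest p in each pathway list and the 3 genes most correlated with Shh, Ptch1 and Gli1; other list genes were named to show what a list holds, some after their values were seen. Some list genes are not reported here. Marker lists covered liver, neural progenitors, neurons, skeletal muscle, heart, mesenchyme, later globins and trophoblast. Alternatives were a pseudocount of 0.1, no filter, a minimum of 5 FPKM, median-ratio scaling, quantile normalization, the label series as a block, Afp as a covariate, and leaving out the 3 embryos nearly lacking liver transcripts or each embryo in turn.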

Additional observations from a re-analysis of the deposited data

Results flagged for a closer look

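Nkx6-2 was flagged among the WT embryos, where KOAC10-2 stood highest at 4.76 FPKM and its gap to the next embryo took up 0.834 of the WT range. It was the 1 gene of 22 looked at in which a WT embryo stood apart in this way, and chance alone flags about 1 in 20. KO embryos, a group of 3, were not put through this test, so the high Hhip of KOAC10-8 was not examined by it.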

How the results depend on the processing

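In none of the 15 alternatives did a Hedgehog gene pass the adjusted threshold in limma (0 in each). The directions of Shh, Ptch1, Cdon, Gli1, Gli2 and Gli3 were kept in all 15. The number of genes called over the whole table was 6, with 3 higher and 3 lower. It was 10 with Afp as a covariate (7 lower) and 17 without the 3 embryos nearly lacking liver transcripts (10 higher, 7 lower). A minimum of 5 FPKM left 1 lower. With each embryo left out in turn it was 7 to 12, with 3 to 6 higher and 2 to 8 lower, with the most in all and the most lower without the WT embryo KOAC8-1, and the most higher without the WT embryo KOAC9-1. The median log2 fold change of the 9 genes, 0.13, was 0.23 without the 3 embryos and ran from 0.053, without KOAC10-8, to 0.19, without KOAC10-5. Smo turned from 0.0066 to -0.015 with quantile normalization and ran from -0.013 to 0.030 with each embryo left out. Without KOAC10-8 the fold change turned for Hhip, to -0.046, and for Boc, to 5.3e-05, and with each embryo left out these ran up to 0.30 and down to -0.14. Hhip averages under 5 FPKM and has no value under that minimum. The cause was not tested.

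With the label series (KOAC8, KOAC9 or KOAC10) as a replicate block, 7 genes were called, 5 of them higher, Smo was at -0.0046 and no other Hedgehog gene changed direction. Deviations from the genotype means correlated at 0.278 for the KO and WT embryos of KOAC8, but between -0.086 and 0.286 for those of KOAC10, so the series was not taken as a pairing.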

Other observations

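The level of Gli3 relative to Gli2 ran from 1.38 to 1.58 over the 7 embryos. The level of Cdon relative to Boc was 0.758, 0.701 and 0.815 in the KO embryos KOAC8-6, KOAC10-5 and KOAC10-8, and 0.917, 0.801, 0.901 and 0.789 in the WT embryos KOAC8-1, KOAC10-7, KOAC9-1 and KOAC10-2. The genotypes overlapped, since KOAC10-8 was low for both genes. Gli1 relative to Gli3 was 1.70 in KOAC10-8 and 1.13 to 1.35 in the other 6 embryos.

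Among 11505 genes averaging 5 FPKM or more, those whose pattern over the 7 embryos was most like that of Shh were Thoc6 (Pearson r = 0.994), Msx1 (0.993) and Patz1 (0.988). For Ptch1 they were Ccz1 (0.984), Cbx2 (0.984) and Hnrnpc (0.981), and for Gli1 Id2 (0.985), Nuf2 (0.982) and Atad1 (0.981). With 7 points and this many genes, values of this size describe these embryos only.

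Other tissue markers gave these values. Heart markers (5 genes) summed to 458 to 601 FPKM in KO and 420 to 500 FPKM in WT embryos. Later globins (4 genes) summed to 5551 to 6089 FPKM in KO and 8550 to 16580 FPKM in WT embryos, with no overlap. Trophoblast markers (3 genes) summed to at most 0.964 FPKM in any embryo.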
